A study of Mus musculus with 12 samples.

Results

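The Serpina1 and Serpina3 clusters are neighbouring families of serine protease inhibitor genes on mouse chromosome 12. The genes described here were chosen by name: Serpina1a, Serpina1b, Serpina1c, Serpina1d, Serpina1e, Serpina3k, Serpina3m, Serpina3n and Serpina6, which are 9 of the 24787 gene rows in the count files. All 9 had enough counts to be tested, among 14172 genes that did. The 12 libraries, 4 per group, were made from total liver RNA of C57Bl/6 mice. The ND group ate a normal diet, for 2 months before dosing began in the other groups. The HFD group ate a high-fat diet, for 2 months before daily injection of vehicle into the peritoneal cavity began. The HFD+MEC1 group ate the same high-fat diet for the same 2 months and then received MEC1, an agent known here only by that name, at 0.5 mg/kg by the same route each day. Sex, age, the length of dosing and whether the ND mice were injected are not given in the sources used here. Nothing in the labels says that each library came from a separate mouse, so p-values measure the spread between these libraries, which may be technical in part.

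Serpins block a protease by offering it a bait loop: the protease cuts the loop and is trapped as the serpin changes shape. In mice the ancestral alpha-1-antitrypsin gene has been copied into the Serpina1 genes, which hepatocytes secrete into plasma and whose human counterpart protects the lung from neutrophil elastase. The Serpina3 genes are likewise copies of the alpha-1-antichymotrypsin gene, and Serpina3n is known as an acute phase gene, raised in liver and in reactive astrocytes during inflammation. Serpina6 encodes corticosteroid-binding globulin, a serpin that no longer inhibits proteases and carries glucocorticoids in blood.

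In RefSeq's models on GRCm38.p6 the 9 genes lie within 767.7 kb. Serpina6 comes first on the minus strand at chr12:103646630-103657218. Then follow Serpina1b at chr12:103728156-103738189, Serpina1d at chr12:103763587-103773633, Serpina1a at chr12:103853295-103863619, Serpina1c at chr12:103894926-103904950 and Serpina1e at chr12:103946931-103956897, also on the minus strand. Serpina3k at chr12:104338486-104345739, Serpina3m at chr12:104387157-104394259 and Serpina3n at chr12:104406646-104414334 lie on the plus strand. The counts are totals per gene, and no value here refers to a single exon, intron or UTR.

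The copies are so alike that reads may not always separate them, which bears on every Serpina1 value. Between the coding sequences of the 5 Serpina1 genes (GENCODE transcripts, GRCm38), identity was 96.3 to 98.5% over 10 pairs, and Serpina1e was 96.3 to 96.5% identical to each of the other 4. Of 1242 aligned coding bases without a gap, 86 differed between at least some of the 5 genes. The 60-base stretch with most differences holds 18 of them. It encodes part of the reactive centre loop, the bait that the protease cuts, and the letters that differ among the 5 genes are in capitals below. The stretch covers coding bases 1101 to 1160 of 1242, or 1170 to 1229 of 1311 in the longer reading frame of Serpina1a, and is read 5′ to 3′ on the coding strand.

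Serpina1a: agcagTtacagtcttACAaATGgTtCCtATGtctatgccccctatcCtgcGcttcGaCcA
Serpina1b: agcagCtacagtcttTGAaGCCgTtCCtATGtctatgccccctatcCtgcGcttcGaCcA
Serpina1c: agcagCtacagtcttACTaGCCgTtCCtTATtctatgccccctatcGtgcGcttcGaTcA
Serpina1d: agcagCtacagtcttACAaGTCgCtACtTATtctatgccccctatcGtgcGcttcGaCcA
Serpina1e: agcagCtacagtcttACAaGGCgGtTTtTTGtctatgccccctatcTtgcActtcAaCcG

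Between these clustered differences the genes share long identical runs. Cut into windows of 100 bases, 85.2% of the Serpina1e transcript occurred in no other gene's transcript, against 79.4% for Serpina1b, 70.7% for Serpina1d, 50.1% for Serpina1a and 41.5% for Serpina1c. Serpina1a shared 47.4% of its windows with Serpina1c. The share found nowhere else was 95.1% for Serpina3k, 93.9% for Serpina3m, 99.8% for Serpina3n and 100% for Serpina6. With windows of 50 bases it was 86.0% for Serpina3k and 80.9% for Serpina3m. In the GENCODE annotation 3.49% of the exonic bases of Serpina3m also lie in an exon of Serpina3k on the same strand. Serpina3k had far more counts than Serpina3m, and whether its reads entered the Serpina3m counts was not tested. The read length and the handling of reads that fit several genes are not given in the sources used here, so the split between Serpina1a and Serpina1c is the least certain. In the GENCODE annotation 31.5% of the exonic bases of Serpina1c also lie in an exon of B430119L08Rik on the other strand, and without knowledge of strand in the counting the reads of the pair cannot be told apart.

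A stretch upstream of the annotated transcription start was also nearly the same in the Serpina1 genes. RefSeq's promoter table on GRCm38.p6 held 6 of the 9 genes, and not Serpina3k, Serpina3m or Serpina6. Over 120 aligned bases, Serpina1e was 98.3% identical to Serpina1a and to Serpina1c, 97.5% to Serpina1b and 95% to Serpina1d. These bases were taken from the longest run that aligned without a gap, so the identity holds for that stretch alone. They lay 182 to 63 bases before the annotated start in Serpina1e, against 125 to 6 in Serpina1a and 120 to 1 in Serpina1d. The bases nearest to the Serpina1e start were thus not compared. GENCODE places the 5′ end of Serpina1e further upstream, at chr12:103958975. Serpina1e, which changed the most of the 5 genes in the comparisons that follow, is shown with 2 of its copies, Serpina1a and Serpina1d. Whether these letters bear on the counts was not tested. Capitals mark the 10 positions that differ among the 5 genes. The minus strand is read 5′ to 3′, from chr12:103956960-103957079 for Serpina1e, chr12:103863625-103863744 for Serpina1a and chr12:103773634-103773753 for Serpina1d.

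Serpina1e: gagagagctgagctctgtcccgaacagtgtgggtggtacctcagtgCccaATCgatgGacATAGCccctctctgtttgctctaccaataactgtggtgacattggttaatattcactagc
Serpina1a: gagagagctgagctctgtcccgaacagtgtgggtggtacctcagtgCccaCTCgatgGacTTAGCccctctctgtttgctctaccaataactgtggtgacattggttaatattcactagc
Serpina1d: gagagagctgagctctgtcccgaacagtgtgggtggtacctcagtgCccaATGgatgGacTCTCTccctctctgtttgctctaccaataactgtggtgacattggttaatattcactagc

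Near the 3′ end of this stretch all 5 Serpina1 genes carried GTTAATATTCAC. It matches a motif named HNF1-like here, which was searched as GTTAAT followed directly by NNTNAC, where N is any base. HNF1 proteins are transcription factors of hepatocytes. On either strand, that motif occurred in 0.143% of the 32851 promoters in the table, each reaching from 250 bases before to 50 bases after the start. That share is for this exact pattern, which fits the Serpina1 sequence, and is not the rate of HNF1 sites. Its first base lay 16 to 27 bases before the annotated start in Serpina1a to Serpina1d and 78 bases before that of Serpina1e. The STAT-like motif TTCNNNGAA, present in 8.30% of promoters, and the C/EBP-like motif TTGNGNAA, present in 13.3%, had no match in the 6 promoters held. The glucocorticoid receptor-like motif, GNACA and TGTNC parted by NNN, present in 0.475% of promoters, occurred in that of Serpina3n. These matches describe letters only.

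Library totals ran from 39916405 to 51340317 counts, and the lowest count of any of the 9 genes was 2299, for Serpina6. At that count the counting error is at least 2.09%, against a spread between libraries of 18.4% fitted for the gene, so replicate spread and not depth limited the precision. Levels below are CPM, counts scaled to library size with TMM factors, given as mean ± SD with n = 4 per group. Genes were compared with each other by the authors' RPKM, which divides by gene length. Together the 9 genes made up 5.97 to 6.79% of all counts in the ND libraries, 4.17 to 4.84% in the HFD libraries and 5.07 to 6.39% in the HFD+MEC1 libraries. Hepatocyte markers (Alb, Ttr, Apoa1, Apob and Ahsg, 5 genes) summed to 84666 to 97572 CPM in ND, 83923 to 98457 in HFD and 71752 to 93561 in HFD+MEC1, and none of the 5 passed the test in any comparison. In bulk liver, fewer cells of a type and less RNA per cell cannot be told apart.

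Per length, the ND liver placed 6 of these genes among its 16 highest of 24787. Serpina1e led with an RPKM of 8274 ± 491 (rank 6), followed by Serpina1c with 6598 ± 628, Serpina3k with 5999 ± 681, Serpina1b with 4821 ± 269, Serpina1a with 4233 ± 340 and Serpina1d with 2958 ± 193. Serpina3m at 169 ± 15.7 RPKM and Serpina3n at 156 ± 17.6 were far lower, and Serpina6 at 42.8 ± 1.68 was lowest. Among neighbours in this order, the library ranges overlapped for Serpina1c and Serpina3k, for Serpina1b and Serpina1a, and for Serpina3m and Serpina3n.

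The order differed in the other groups. In the HFD group Serpina1e had an RPKM of 1988 ± 1022 and rank 24, below Serpina1d at 2329 ± 109, and those ranges overlapped. Serpina1c led there with 6105 ± 279. Serpina1b, at 4373 ± 132, stood above Serpina3k, at 3945 ± 568, and Serpina1a, at 3643 ± 140, was next. The range of Serpina3k overlapped both of its neighbours. In the HFD+MEC1 group Serpina1c at 6403 ± 791 and Serpina1e at 6236 ± 2071 (rank 10) overlapped, and so did each neighbouring pair from there down to Serpina1a at 4071 ± 341. Serpina3n, at 482 ± 516, stood above Serpina3m, at 257 ± 82.4, in that group, again with overlap. Serpina3n was at rank 292 in ND, 259 in HFD and 96 in HFD+MEC1. Its RPKM was 122, 253, 1247 and 306 in HFD+MEC1 replicates 1 to 4, so replicate 3 raised the mean behind rank 96.

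The first comparison asks what the high-fat diet with vehicle did to these genes relative to the normal diet. Serpina1e fell the furthest of the 9, 4.38-fold, and Serpina3k, the most abundant of the Serpina3 members, fell by a smaller factor. The other Serpina1 copies were lower by small amounts that did not pass the test. Of the 9 genes, 2 passed an adjusted p of 0.05 in edgeR's quasi-likelihood test, both lower, while 6.30% of all genes tested were called, 2.95% in the lower direction. The median log2 fold change of the 9 was -0.24, against 0.00 over all genes.

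Serpina1e was at 14017, 16607, 14326 and 15213 CPM in ND replicates 1 to 4. In the HFD libraries it was at 2302, 4186, 1566 and 5675 CPM. Every HFD library lay below every ND library, and the HFD libraries differed among themselves more than the ND libraries did: the SD was 54.1% of the mean in HFD and 7.72% in ND. The means were 15041 ± 1161 and 3432 ± 1858 CPM, a 4.38-fold lower level (log2 fold change -2.13 ± 0.37 SE, adjusted p = 0.00592). The call held in all 18 alternative settings, with log2 fold changes from -2.49 to -1.89.

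The other 4 Serpina1 genes had adjusted p-values from 0.0561 to 0.473. Serpina1d was at 5388, 6043, 5865 and 5275 CPM in ND and at 4440, 4151, 3746 and 4324 CPM in HFD. Its groups did not overlap, and its log2 fold change was -0.44 (adjusted p = 0.0561). It passed the threshold in 5 of 18 alternatives, with an adjusted p of 0.000579 by DESeq2, 0.0477 without the filter on low counts, and 0.0462, 0.0307 and 0.0484 without HFD+MEC1 replicate 1, 3 or 4, libraries of neither group, which enter the fit through the shared estimate of spread and the scaling.

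Serpina1a was at 9844 to 11619 CPM in ND and 8095 to 9415 in HFD, again without overlap (log2 fold change -0.31, adjusted p = 0.216; 0.0317 by DESeq2). Serpina1b was at 8569 to 10011 CPM in ND and 7480 to 7872 in HFD, also without overlap (log2 fold change -0.24, adjusted p = 0.317). Serpina1c, at 11241 to 13369 and 9595 to 11731 CPM, overlapped (log2 fold change -0.20, adjusted p = 0.473). On the TMM scale 5 of the 9 genes had HFD libraries all below the ND libraries, while 6.81% of all genes tested did. On scales added after the data were seen the count was lower. Scaled by library totals 3 of the 9 did (Serpina1d, Serpina1e and Serpina3k) against 3.52% of all genes, and by RPKM 4 did, with Serpina1b added, against 4.06%.

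**Figure D1:**
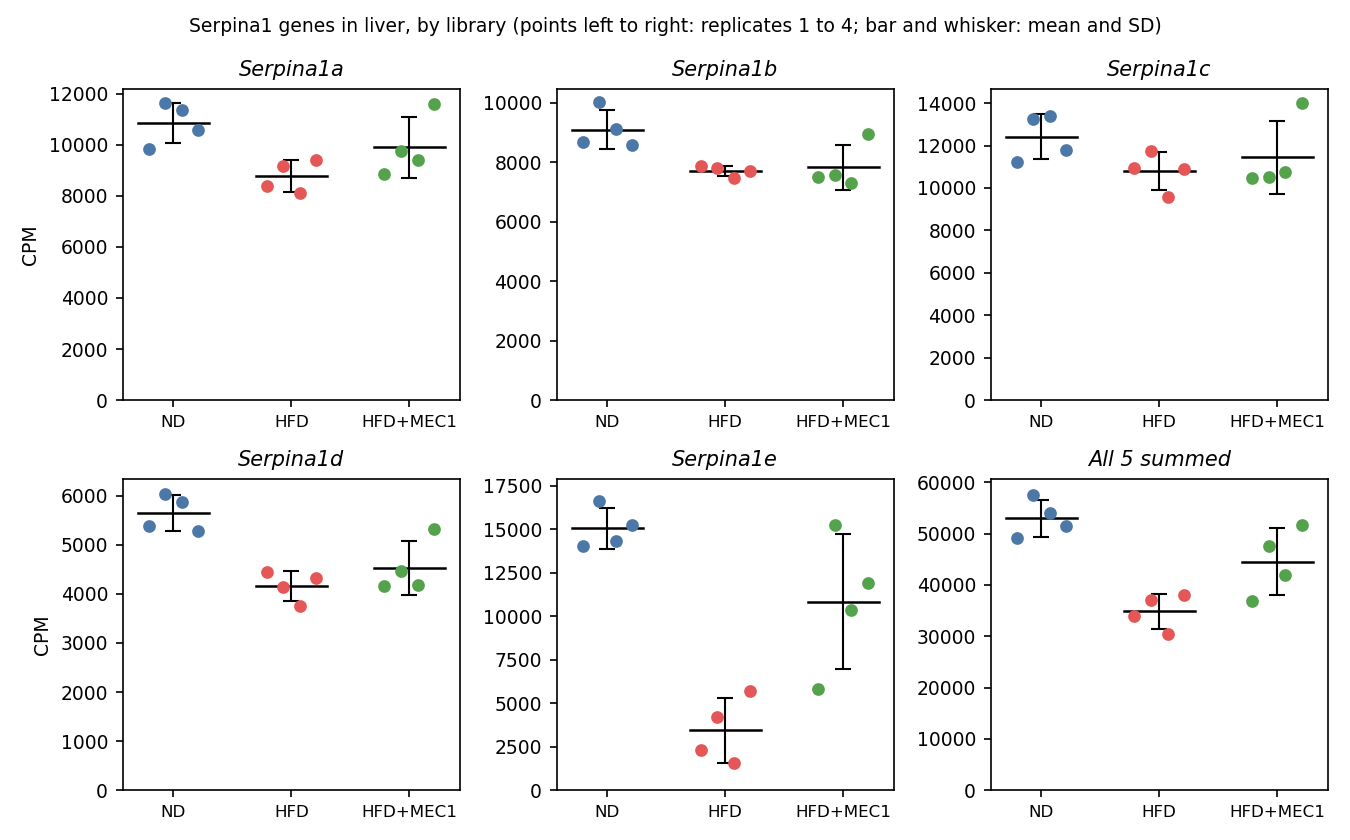
CPM of the 5 Serpina1 genes and of their sum (vertical axes, linear, each from 0) in the ND, HFD and HFD+MEC1 groups. Each point is a library, with the group mean as a bar and the SD as a whisker. Serpina1e ranges from 1566 to 5675 CPM in HFD and from 14017 to 16607 in ND, while Serpina1a lies between 8095 and 11619 CPM across both groups.

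Because reads may pass between near-identical copies, the 5 Serpina1 rows were also summed before the fit. The sum was 53047 ± 3593 CPM in ND and 34864 ± 3402 CPM in HFD (log2 fold change -0.61 ± 0.17 SE, adjusted p = 0.0402). The summed call was lost in 8 of 13 alternatives: the adjusted p was 0.0724 with library totals in place of TMM, 0.0733, 0.0988, 0.0936 and 0.0960 without ND replicate 1, 2, 3 or 4, and 0.0948, 0.0740 and 0.127 without HFD replicate 1, 2 or 3.

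The share of Serpina1e in the counts of the 5 genes sets it against its copies within each library and needs no library scaling. Serpina1e gave 28.5, 28.9, 26.5 and 29.6% of the Serpina1 counts in the ND libraries. It gave 6.78, 11.3, 5.14 and 14.9% in the HFD libraries. No HFD library reached the lowest ND share, and the means were 28.4 ± 1.31% in ND and 9.54 ± 4.44% in HFD. The exact two-sided permutation test gave p = 0.0286, the smallest that 4 against 4 libraries can give, and 0.0536 after Benjamini-Hochberg adjustment over the 15 share tests.

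Shares of a total must sum to it, so the other 4 shares are not independent of Serpina1e. Taken among Serpina1a to Serpina1d alone, a denominator chosen after seeing the data, the mean shares differed between ND and HFD by at most 1.63 percentage points, the value for Serpina1c. Serpina1a was 28.5 ± 0.510% of those counts in ND and 27.9 ± 1.08% in HFD. Serpina1d was 14.9 ± 0.329% in ND and 13.3 ± 0.605% in HFD (exact permutation p = 0.0286, adjusted p = 0.171 over 12 tests), without overlap. In HFD+MEC1 it was 13.5 ± 0.235%, which did not overlap ND either (exact permutation p = 0.0286, adjusted p = 0.171).

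**Figure D2:**
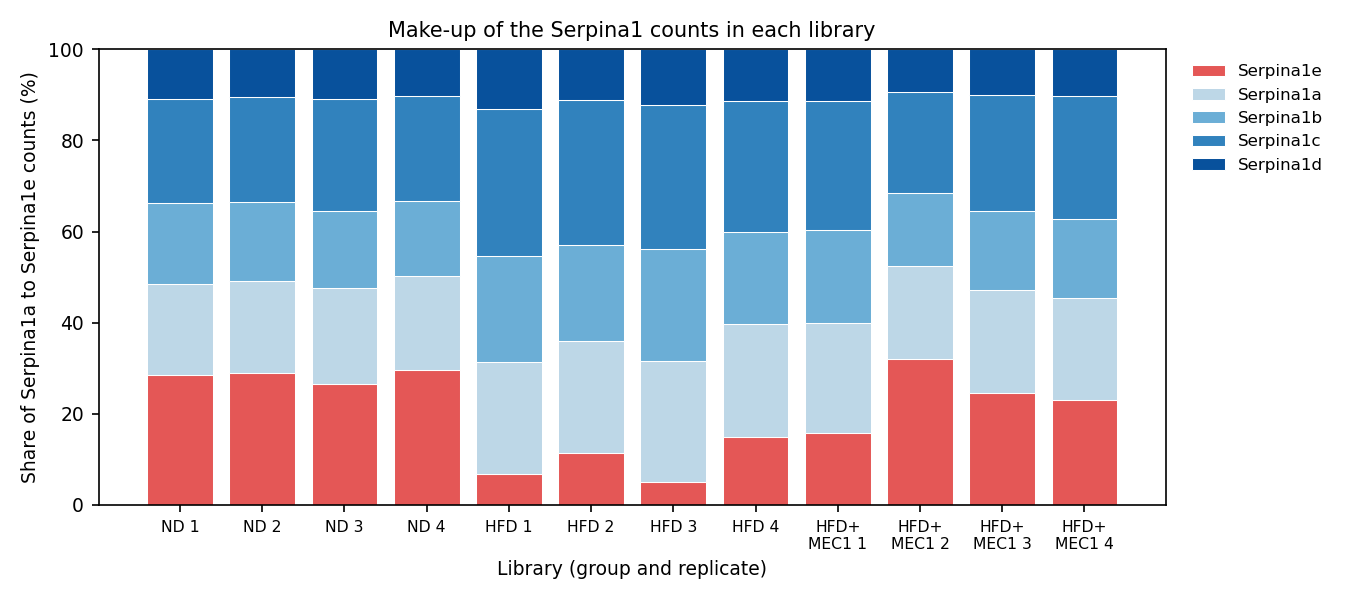
Share of the summed Serpina1a to Serpina1e counts (vertical axis, percent) that each gene gave in each of the 12 libraries (horizontal axis). Serpina1e, at the foot of each bar, gives 26.5 to 29.6% in ND, 5.14 to 14.9% in HFD and 15.9 to 32.0% in HFD+MEC1.

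Serpina3k encodes contrapsin, a plasma inhibitor of trypsin-like proteases. It was at 12077, 15974, 11884 and 12627 CPM in ND and at 8222, 9675, 6149 and 8396 CPM in HFD. The groups did not overlap. Its level was 1.62-fold lower in HFD (log2 fold change -0.70 ± 0.18 SE, adjusted p = 0.0293). The call was lost without ND replicate 1, 2 or 4 (adjusted p = 0.0537, 0.0867 and 0.0690) and without HFD replicate 1 or 3 (0.0639 and 0.103). In all 18 alternatives the log2 fold change was between -0.79 and -0.58. When 11 Serpina3 rows were summed before the edgeR fit, the sum did not pass (log2 fold change -0.63 ± 0.19 SE, adjusted p = 0.0561). It passed in 2 of 13 alternatives, without HFD+MEC1 replicate 1 or 3.

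Serpina3m and Serpina3n, its neighbours, did not pass the test. Serpina3m was at 335 to 438 CPM in ND and 425 to 483 CPM in HFD (log2 fold change 0.27, adjusted p = 0.431), with overlap. Serpina3n was at 400.5, 525, 410 and 393 CPM in ND and at 390, 336, 343 and 759 CPM in HFD. HFD replicate 4 was above the ND range, and the other 3 lay below it, replicate 1 only just. The log2 fold change was 0.08 (adjusted p = 0.962), and -0.28 without that library.

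The difference between Serpina3n and Serpina3k was tested on their ratio within each library. For every 100 Serpina3k counts there were 3.32, 3.28, 3.45 and 3.12 Serpina3n counts in ND and 4.74, 3.48, 5.57 and 9.04 in HFD. All HFD values lay above the ND values, though HFD replicate 2 did so barely. The log2 ratio was -4.93 ± 0.0599 in ND and -4.22 ± 0.58 in HFD, a difference of 0.71 (exact two-sided permutation p = 0.0286, adjusted p = 0.0857 over 3 comparisons), which did not pass the threshold after adjustment. Without HFD replicate 4 the difference was 0.46.

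Serpina6, the steroid carrier, was at 95.4, 92.5, 84.2 and 92.3 CPM in ND and at 99.2, 116, 137 and 115 CPM in HFD. Its HFD libraries all lay above the ND libraries, as 7.46% of all genes did on the TMM scale. It was the only such member there, and Serpina3m joined it with library totals, where 14.1% of all genes did so, and by RPKM, where 11.9% did. Its log2 fold change was 0.36 (95% interval -0.03 to 0.74, adjusted p = 0.280).

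The second comparison asks what MEC1 did to these genes in mice on the high-fat diet. Serpina1e was 3.16-fold higher in HFD+MEC1 than in HFD, without overlap between the groups, but its adjusted p was 0.101. None of the 9 genes passed in edgeR's quasi-likelihood test, and 0.0282% of all genes tested did. At an unadjusted p under 0.05 there were 4 of the 9 (Serpina1e, Serpina3k, Serpina3n and Serpina6), while 14.8% of all genes reached that level. DESeq2 called 1 of the 9, Serpina1e, and limma called 0 on voom weights and 0 on RPKM. Over all genes DESeq2 called 389 of 14172, and limma called 4 on voom weights and 1 on RPKM. The log2 fold change was positive for 8 genes and negative for Serpina6, with a median of 0.18 against 0.01 over all genes.

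Serpina1e was at 5840, 15233, 10358 and 11912 CPM in HFD+MEC1 replicates 1 to 4, against 1566 to 5675 CPM in HFD. Replicate 1 of the treated group lay just above the highest HFD library, HFD replicate 4, and the other 3 lay well above it. The mean was 10836 ± 3902 CPM (log2 fold change 1.66, 95% interval 0.86 to 2.45). The adjusted p was 0.0298 without HFD replicate 4, 0.0199 without HFD+MEC1 replicate 1 and 0.00353 by DESeq2, and it ran up to 0.257 over the 18 alternatives, in all of which the log2 fold change was positive. Its treated libraries all lay above the HFD libraries, as 3.13% of all genes did on the TMM scale. The same held with library totals and by RPKM, where Serpina1a also did so, against 3.22% of all genes.

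The share of Serpina1e was also compared. It was 15.9, 32.0, 24.7 and 23.0% of the Serpina1 counts in the treated libraries, all above the HFD libraries. The mean share was 23.9 ± 6.63%, higher than in HFD by 14.4 percentage points (exact permutation p = 0.0286, adjusted p = 0.0536). This comparison shares the HFD libraries with the first.

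The other 4 Serpina1 genes differed little between HFD+MEC1 and HFD. The log2 fold changes were 0.18 for Serpina1a, 0.02 for Serpina1b, 0.08 for Serpina1c and 0.12 for Serpina1d, with adjusted p-values from 0.592 to 0.962. The sign turned for Serpina1b in 2 alternatives and for Serpina1c in 1. The 95% interval of Serpina1b was -0.25 to 0.29 and that of Serpina1c was -0.23 to 0.40, so changes within those bounds are not excluded by the spread. Serpina1c in HFD+MEC1 replicate 4, at 14015 CPM, stood apart from the 10456 to 10731 CPM of its group. The summed Serpina1 genes were at 44529 ± 6538 CPM (log2 fold change 0.35 against HFD, adjusted p = 0.337).

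**Figure D3:**
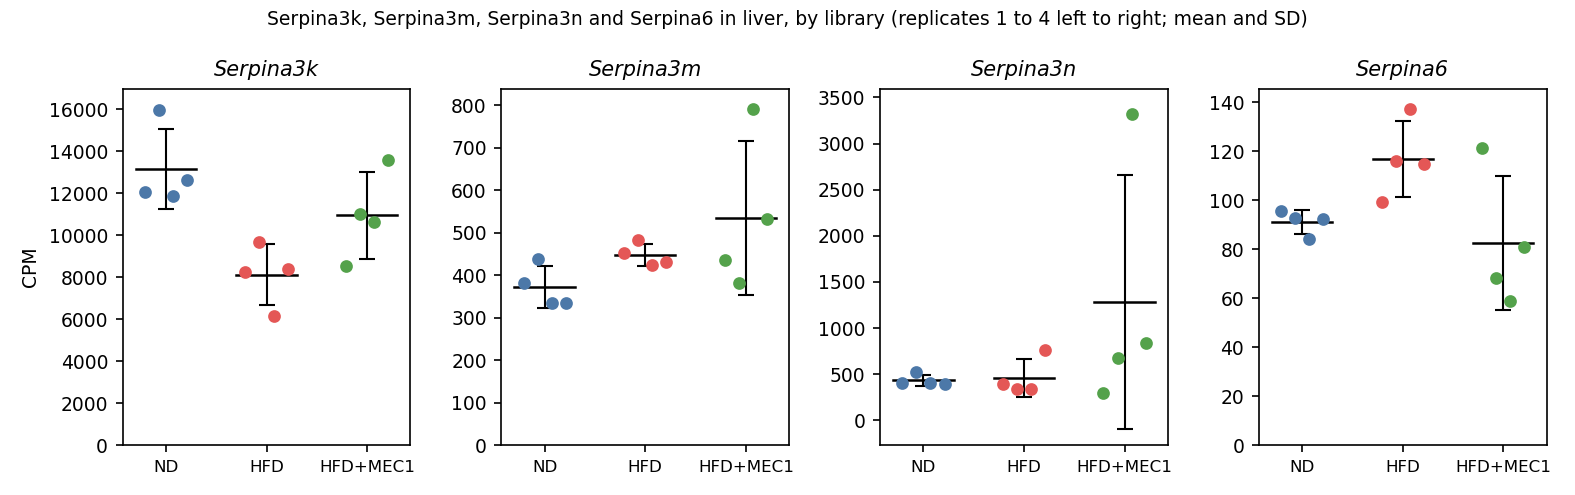
CPM of Serpina3k, Serpina3m, Serpina3n and Serpina6 (vertical axes, linear) in the ND, HFD and HFD+MEC1 groups, with each library as a point, the group mean as a bar and the SD as a whisker. Serpina3n in HFD+MEC1 replicate 3 is at 3316 CPM, and the other 3 libraries of that group are at 292 to 834 CPM.

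Among the Serpina3 genes, Serpina3k was at 8554, 11010, 10624 and 13600 CPM in the treated libraries, and only replicate 1 lay inside the HFD range (log2 fold change 0.43, adjusted p = 0.276). Serpina3n was at 292, 672, 3316 and 834 CPM, so that replicate 1 lay below all HFD libraries and replicate 3 above every other library of the study. Its log2 fold change was 1.48 (95% interval 0.01 to 2.96, adjusted p = 0.333), and 0.40 without replicate 3. Serpina3m was also highest in that library, at 791 CPM against 381 to 532 in the other 3, and its log2 fold change of 0.26 (adjusted p = 0.536) was 0.01 without it.

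HFD+MEC1 replicate 3 stood apart in other measures as well. C3, the central complement protein, was at 12386 CPM there and at 4632 to 7119 CPM in the other 3 treated libraries. Hpx, the haem-binding plasma protein hemopexin, was at 15057 CPM there and at 2155 to 6036 in the others. Neutrophil markers (6 genes, 5 tested) summed to 13.1 CPM in that library and to 3.05 to 6.06 CPM in the others, hepatocyte markers to 71752 CPM against 81916 to 93561. Over all libraries the neutrophil sum was 2.18 to 4.95 CPM in ND, 1.97 to 9.97 in HFD and 3.05 to 13.1 in HFD+MEC1. No neutrophil marker was at 0 in all libraries of a group or passed the test in a comparison, and the part of these cells in the Serpina3n values was not tested.

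Serpina6 was at 121, 68.3, 59.0 and 81.1 CPM in HFD+MEC1. In 3 of the 4 treated libraries it lay below all HFD libraries, and replicate 1 lay inside the HFD range. The log2 fold change was -0.50 (95% interval -0.89 to -0.12, adjusted p = 0.217), and -0.75 without replicate 1 (adjusted p = 0.00788).

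Replicate 1 of the treated group was nearest to the HFD libraries for Serpina1e, Serpina3k and Serpina6. Without it, 2 of the 9 genes passed in this comparison, Serpina1e and Serpina6, and 460 of all genes did, against 4 with it.

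The third comparison sets HFD+MEC1 against ND, with both diet and agent differing. None of the 9 genes passed in edgeR's quasi-likelihood test, while 4.54% of all genes tested did. At an unadjusted p under 0.05 there were 3 of the 9 (Serpina1d, Serpina3m and Serpina3n), while 19.1% of all genes reached that level. DESeq2 called 2, Serpina1d and Serpina3m, and limma called 0 on voom weights and 0 on RPKM. Over all genes DESeq2 called 1155 of 14172, and limma called 585 on voom weights and 596 on RPKM. Every member's groups overlapped on the TMM scale, though those of Serpina1d did not with library totals, being lower as 3.42% of all genes were. Of all genes on the TMM scale, 5.84% had treated libraries all below the ND libraries and 5.13% all above.

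Serpina1e in HFD+MEC1 lay below the ND range in 3 libraries, replicates 1, 3 and 4, and its log2 fold change was -0.47 (95% interval -1.25 to 0.30, adjusted p = 0.529). Replicate 2, at 15233 CPM, lay inside the ND range. For Serpina3k the log2 difference was -0.26 (95% interval -0.64 to 0.12, adjusted p = 0.466).

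Serpina1d was 4533 ± 547 CPM in HFD+MEC1 and 5642 ± 370 CPM in ND (log2 fold change -0.32, adjusted p = 0.189; 0.0284 by DESeq2). Serpina3m was 535 ± 181 and 372 ± 48.7 CPM (log2 fold change 0.52, adjusted p = 0.111). The value of Serpina3m was 0.27 without HFD+MEC1 replicate 3 and 0.65 without replicate 2, with an adjusted p of 0.0389 in the latter case.

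The log2 fold change of Serpina3n was 1.57 (adjusted p = 0.232), and 0.47 without replicate 3. Its ratio to Serpina3k was 3.41, 6.11, 31.2 and 6.13 per 100 counts in the treated libraries, and the log2 ratio differed from ND by 1.27 (exact permutation p = 0.0571, adjusted p = 0.0857) and from HFD by 0.57 (exact permutation p = 0.571). Without replicate 3 these differences were 0.62 from ND and -0.09 from HFD. Serpina1a, Serpina1b, Serpina1c and Serpina6 had log2 fold changes from -0.22 to -0.12 with adjusted p-values of 0.389 or more.

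**Figure D4:**
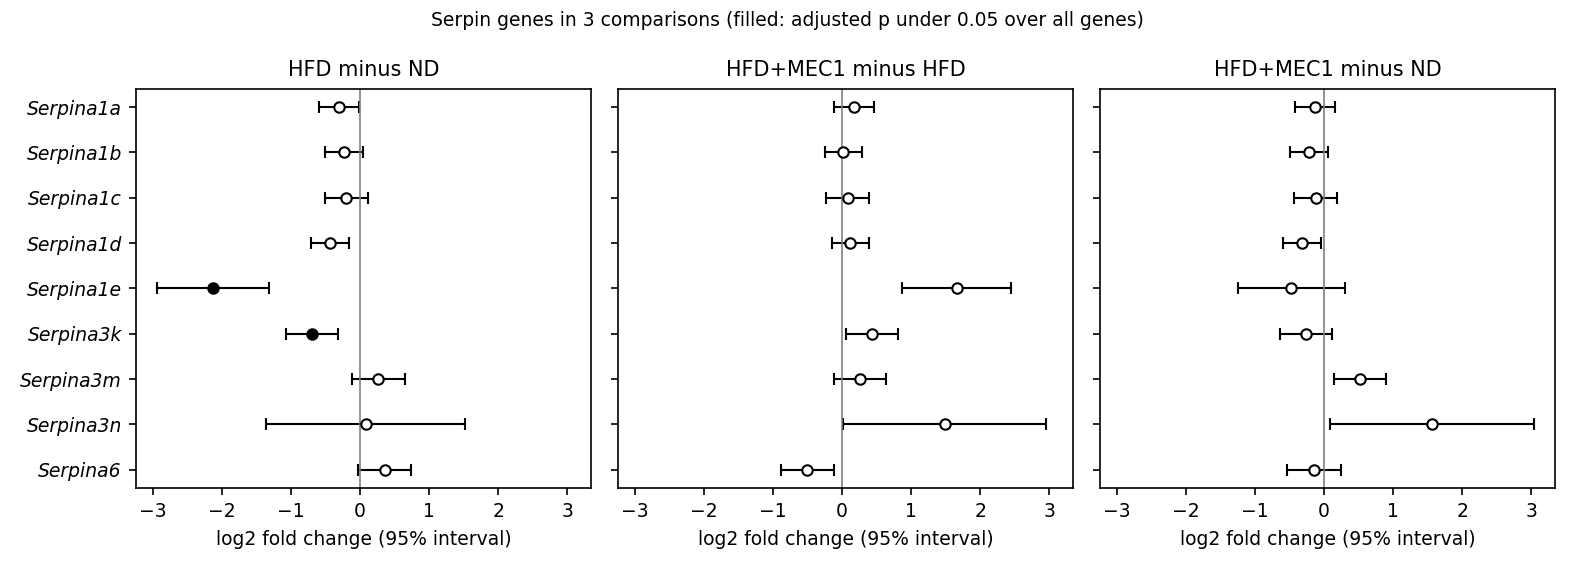
Log2 fold change (horizontal axis) of the 9 genes in the 3 comparisons, as points with 95% intervals from the edgeR fit. Filled points passed an adjusted p of 0.05 over all 14172 genes: Serpina1e at -2.13 and Serpina3k at -0.70, both in HFD against ND.

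Other serpins of the same clade were read from a list of 17 genes, of which 12 could be tested. In HFD against ND 2 rose and 1 fell, in HFD+MEC1 against HFD 0 passed, and in HFD+MEC1 against ND 1 rose. Serpina7, thyroxine-binding globulin, was at 67.0, 22.6, 29.0 and 19.1 CPM in ND and at 84.5, 130, 165 and 160 CPM in HFD, without overlap (log2 fold change 1.97, adjusted p = 0.0277). That call was lost without ND replicate 2, 3 or 4 and without HFD replicate 2, 3 or 4, with the value between 1.77 and 2.51 in all 18 alternatives. Serpina3h, a low copy of the Serpina3 cluster, fell from 22.7 ± 4.58 CPM in ND to 14.6 ± 3.36 in HFD, by 0.63 on the log2 scale (adjusted p = 0.0337), and lost the call without ND replicate 1, 2 or 4 and without HFD replicate 1, 3 or 4, with values from -0.74 to -0.48. Serpina3g, another copy, rose from 6.57 ± 1.31 to 11.9 ± 0.647 CPM (adjusted p = 0.0391), with log2 fold changes from 0.72 to 0.98 over the alternatives, and lost the call in 9 of 18: limma-voom, without ND replicate 1, 3 or 4, without any of the 4 HFD libraries and without HFD+MEC1 replicate 4. It was at 15.8 ± 6.50 CPM in HFD+MEC1, higher than in ND in all 18 alternatives (log2 fold change 1.26, adjusted p = 0.00691).

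In HFD+MEC1 against HFD the most abundant of that list were Agt, angiotensinogen, at 415 ± 46.7 and 418 ± 48.0 CPM, and Serpina10, the inhibitor of coagulation factor X that works with protein Z, at 330 ± 230 and 154 ± 40.3 CPM (log2 fold change 1.10, adjusted p = 0.264). Serpina10 was at 662 CPM in HFD+MEC1 replicate 3 and at 132, 274 and 252 CPM in the others, and its log2 fold change was 0.52 without that library. Of 14 liver serpins of other clades, 1 rose in HFD against ND: Serpinb8, an intracellular serpin, with 1.64 ± 0.365 CPM in ND and 4.38 ± 0.675 in HFD (a log2 difference of 1.41, adjusted p = 0.00100). None of the 14 passed in the other comparisons. Serpinf2, the plasmin inhibitor alpha-2-antiplasmin, was at 633 ± 107 CPM in HFD and 927 ± 148 in HFD+MEC1 (0.55 on the log2 scale, adjusted p = 0.101). Serpinc1, antithrombin, was at 1506 ± 68.5 and 1539 ± 88.3 CPM.

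Of the proteases that such serpins inhibit, 10 of 14 could be tested and 0 passed in any comparison. F2, prothrombin, was at 1425 ± 87.8, 1298 ± 97.1 and 1405 ± 107 CPM in ND, HFD and HFD+MEC1. The cytokine pathway that drives acute phase genes had 1 gene up and 1 down among 19 tested in HFD against ND. Lifr, a receptor subunit of the interleukin-6 family, fell by 1.14 on the log2 scale, with 252 ± 42.7 CPM in ND and 115 ± 28.8 in HFD (adjusted p = 0.00240), and was at 171 ± 29.3 CPM in HFD+MEC1. Cebpd, a transcription factor induced in the acute phase, rose from 4.86 ± 1.36 to 8.98 ± 1.54 CPM (adjusted p = 0.0247), a call lost without ND replicate 1 or 4 and without HFD replicate 1 or 3, with log2 fold changes from 0.69 to 1.04. Il6ra, the interleukin-6 receptor, passed in HFD+MEC1 against ND, at 43.3 ± 8.46 and 17.3 ± 4.96 CPM (log2 fold change 1.32, adjusted p = 0.00167), and was at 22.3 ± 3.10 CPM in HFD.

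Acute phase serum proteins did not pass in any comparison (0 of 21 each). In HFD against ND 18 of the 21 had negative log2 fold changes, with a median of -0.37. In HFD+MEC1 against HFD all 21 were positive with a median of 1.04, and in HFD+MEC1 against ND all 21 were positive with a median of 0.62, while the medians over all genes were 0.00, 0.01 and 0.00. Without HFD+MEC1 replicate 3, 20 of 21 were positive against HFD with a median of 0.49, and 16 of 21 against ND with a median of 0.13. Without HFD replicate 4 the median in HFD against ND was -0.57, and without ND replicate 2 it was -0.20. C3 was at 4128 ± 649 CPM in HFD and 7726 ± 3296 in HFD+MEC1 (0.90 on the log2 scale, adjusted p = 0.108), and the value was 0.59 without replicate 3.

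Liver transcription factors of serpin promoters gave 0 of 12 in both comparisons with HFD. Hnf4a was at 533 ± 55.2, 508 ± 30.9 and 629 ± 104 CPM in ND, HFD and HFD+MEC1. Creb3l3, a membrane-bound factor of fasting and acute phase genes, rose in HFD+MEC1 against ND, 276 ± 38.7 against 192 ± 22.4 CPM (log2 fold change 0.53, adjusted p = 0.0116). In that comparison 3 of the 12 had positive and 9 negative log2 fold changes, with a median of -0.14 (6 and 6 without ND replicate 2). Of 24 genes that fold, check or export serpins in the endoplasmic reticulum, 0 passed in both comparisons with HFD and 1 rose in HFD+MEC1 against ND: Pdia4, a disulfide isomerase, at 335 ± 59.0 and 225 ± 26.7 CPM (adjusted p = 0.0215). That call was lost without ND replicate 1 or 2 and without HFD+MEC1 replicate 2 or 4, with log2 fold changes from 0.46 to 0.65.

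The glucocorticoid axis, whose hormone Serpina6 carries, had 0 of 15 genes past the test in both comparisons with HFD. In HFD+MEC1 against ND 2 rose and 0 fell. The log2 fold changes of the 15 were positive for 7 and negative for 8 there, with a median of -0.02. Zbtb16, a transcription factor induced by glucocorticoids, was at 36.7 ± 3.99 CPM in HFD+MEC1, 9.24 ± 5.07 in HFD and 5.70 ± 0.888 in ND (log2 fold change 2.68 against ND, adjusted p = 0.00163). H6pd, which supplies cofactor to the enzyme that regenerates active glucocorticoid, was at 521 ± 173 and 326 ± 32.5 CPM in HFD+MEC1 and ND (adjusted p = 0.0446), a call lost in 9 of 18 alternatives: limma-voom, without ND replicate 1, 2 or 4, without HFD replicate 1, 2 or 3 and without HFD+MEC1 replicate 3 or 4, with log2 fold changes from 0.43 to 0.79. Hsd11b1, that enzyme, was at 531 ± 31.4, 608 ± 82.1 and 475 ± 91.6 CPM in ND, HFD and HFD+MEC1 and did not pass in any comparison. Tat, of the same list, went the other way from Zbtb16, at 2025 ± 497, 1205 ± 349 and 1021 ± 309 CPM in those groups. It did not pass either (log2 fold change -0.99 in HFD+MEC1 against ND).

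Genes whose levels followed the members most closely over the 12 libraries are given as a description, by Pearson's r of log2 CPM among 12010 candidates, without a test. The 12 points share 3 group means and their library scaling. For the summed Serpina1 genes these were C1ra, a complement protease (r = 0.98), C8b, a subunit of the complement membrane attack complex (0.96), and Selenbp2 (0.96). C8b also led for Serpina1e alone (0.98), followed by Sort1, a sorting receptor of the secretory pathway (0.97), both found by a search added after seeing the data. C8b was at 503 ± 42.3 CPM in ND, 170 ± 63.7 in HFD and 351 ± 113 in HFD+MEC1.

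For Serpina3k, in a search also added after seeing the data, the closest were AI182371 (0.96) and Serpina3h (0.95). For Serpina3n, in the planned search, they were Serpina3i, Apcs, an acute phase pentraxin, and Slc39a1, a zinc transporter (each 0.96). Without HFD+MEC1 replicate 3 the last 3 values were 0.84, 0.86 and 0.85. Serpina3i was low, at 1.37 ± 0.170, 1.09 ± 0.235 and 2.21 ± 1.52 CPM in ND, HFD and HFD+MEC1. Whether it took up reads of the far more abundant Serpina3n was not tested. For Serpina6 the closest were Zfand5 (0.95), Bche, butyrylcholinesterase (0.94), and Myl12a (0.92). Bche was at 99.5 ± 12.6, 141 ± 19.4 and 91.2 ± 28.7 CPM in ND, HFD and HFD+MEC1.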

How the data were processed

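Liver RNA-seq of 12 samples was analysed, grouped by sample title. The authors deposited a file of unnormalised counts by gene symbol for every sample, and a joint RPKM table, per the file headers. STAR 2.7.10a and mm10 are named in the submitters' processing notes; the counting tool, strand and read length are not given in the sources used here. Of genes with 1 to 20 deposited counts, 70.1 to 74.7% were even, so counts may be read ends. The RPKM table held 12 further columns, not analysed here, and 244 to 296 genes per library had 0 counts but RPKM above 0.

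Counts were filtered (filterByExpr), scaled by TMM and tested in edgeR 4.0.16 (quasi-likelihood, 3 groups in 1 fit, Benjamini-Hochberg over 14172 genes, threshold 0.05). The script was tested on simulated data. Shares and ratios used exact permutation tests (scipy 1.17.1). Alternatives were DESeq2 1.42.0, limma 3.58.1 (voom, and log2(RPKM + 1)), library totals, no filter, a replicate block, summed families and leaving out each library. Coding sequences were aligned with MAFFT 7.526. Named list genes were up to 4 past the threshold with the smallest p, otherwise the 3 most abundant. Members and lists were chosen with earlier results of these data known.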

Additional observations from a re-analysis of the deposited data

Results flagged for a closer look

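Among 48 groups of 4 libraries examined for the members' levels and shares, 5 held a library far from the other 3; chance flags about 1 group in 20. Serpina3n was at 525 CPM in ND replicate 2 and at 393 to 410 in the other ND libraries. It was at 759 CPM in HFD replicate 4 and at 336 to 390 CPM in the other HFD libraries. Serpina1c was at 14015 CPM in HFD+MEC1 replicate 4 and at 10456 to 10731 CPM in the others. Serpina1a gave 26.6% of the Serpina1 counts in HFD replicate 3 and 24.7 to 24.8% in the other HFD libraries. Serpina1c gave 24.7% of them in ND replicate 3 and 22.9 to 23.1% in the other ND libraries.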

How the results depend on the processing

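No member's called change turned its direction in any setting. With DESeq2, 4 members passed in HFD against ND, 1 in HFD+MEC1 against HFD and 2 in HFD+MEC1 against ND, where edgeR called 2, 0 and 0. Leaving out a library gave 1 to 3, 0 to 2 and 0 to 1. With the replicate block, 1 member, Serpina1e, passed in HFD+MEC1 against HFD (adjusted p = 0.0449) and no other member's call changed. There was little sign that the replicate numbers pair the libraries, though these values cannot exclude it and the labels do not say. Same-numbered libraries deviated together with r over 0.1 in 1 of 12 pairs (-0.09 to 0.13), and 4 of 12 libraries matched best with their own number. Over all genes, 893, 4 and 644 were called, 1391, 389 and 1155 by DESeq2, 0 with library totals and 21 with the block in HFD+MEC1 against HFD, and 423 to 1109, 0 to 460 and 334 to 678 when leaving out a library. Library totals moved the median log2 fold change of all genes in HFD against ND to 0.12, and 79.5% of called genes were then higher (74.6% by RPKM, 53.2% with TMM). In HFD+MEC1 against ND these shares were 66.8, 64.9 and 47.2%. Members sequenced to this depth are limited by the spread between libraries; reads shared by Serpina1a and Serpina1c are limited by sequence identity.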
